A study of Cavia porcellus with 13 samples.

Results

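The 9 genes described here encode components and products of T cells: the CD3D, CD3E and CD3G chains of the T cell receptor complex, the adaptor LAT, the surface receptor CD6, the coreceptor chains Cd8a and Cd8b, the granzyme GZMK and the transcription factor FOXP3. They were taken from the deposited expression table by gene symbol, ignoring case, and each of the 9 matched 1 of its 26855 genes. The table holds 13 RNA-seq libraries of guinea pig skin, taken from exposed animals 4 days after ticks attached, in 2 sets that the sample titles call CK1 and EF19-5. CK1 holds 2 libraries of naive animals, 3 of a first exposure to ticks and 3 of animals labelled saliva immune. EF19-5 holds 1 naive library, 2 of animals with 2 bites and 2 of animals with 3 bites. The labels do not say how the saliva immune animals were immunized, and they give no strain, sex, age or tick species. The 10 libraries that are not naive are called bitten below, following the series description, since the label of the saliva immune group does not itself state attachment. CK1 and EF19-5 have no treated group in common, so first exposure and repeat bites were compared only through the naive libraries of each set.

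The T cell receptor binds peptide on other cells through its variable chains, which have no signalling tails of their own. The CD3 chains and CD247 carry those tails: LCK phosphorylates them, ZAP70 docks on them, and LAT then gathers the enzymes that pass the signal into the cell. CD8 on cytotoxic T cells helps the receptor hold class I complexes, granzymes are proteases that such cells release, and FOXP3 defines regulatory T cells, which restrain the others. In animals that resist ticks after repeat feeding, T cells gather in the skin beneath the attached tick.

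Levels are given in TPM, a unit that divides reads by transcript length and scales each library to the same total, so that a gene's share of the messenger RNA is compared. Across the 13 libraries, 13270 to 14391 genes reached 1 TPM. Differences in log2(TPM + 1) were fitted with limma across the 14979 genes that reached 1 TPM in at least 2 libraries, with Benjamini-Hochberg adjustment over all of them. Bitten against naive skin had its own model, and a second model of the 5 groups gave the other comparisons. Both had the set of libraries as a term. Cd8a reached 1 TPM in 1 library only, so 8 of the 9 genes were tested. Of these, CD3G, CD6, LAT, Cd8b, GZMK and FOXP3 were below 1 TPM in every naive library, so they passed the filter only through bitten libraries. CD3D reached 1 TPM in 1 naive library, so it also needed a bitten library to pass. The epidermal keratins KRT5 and KRT14 and the collagen COL1A1 stood at 689 TPM or more in every library. A list of 30 skeletal muscle genes made up 2.44% to 17.1% of the TPM in CK1 and 0.640% to 2.41% in EF19-5, highest in naive replicate 2 of CK1. In whole skin, fewer T cells and less RNA per T cell cannot be told apart.

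All 9 genes were at low levels. CD3E was the most abundant at a mean of 3.70 TPM over the 13 libraries, rank 11975 of all 26855 genes, and GZMK the least at 0.529 TPM, rank 14878. The other means were 2.20 TPM for CD3D, 1.27 for CD3G, 0.964 for LAT, 0.778 for CD6, 0.769 for FOXP3, 0.612 for Cd8a and 0.588 for Cd8b. The CD3 chains, CD247, LCK and ZAP70 were above 0 in every library, whereas the T cell surface gene CD5 was listed at 0 in 7 libraries and CD2 in 1. Neighbouring genes in this order lay within each other's spread, and the order from LAT down rests on means that are all below 1 TPM.

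**Figure D1:**
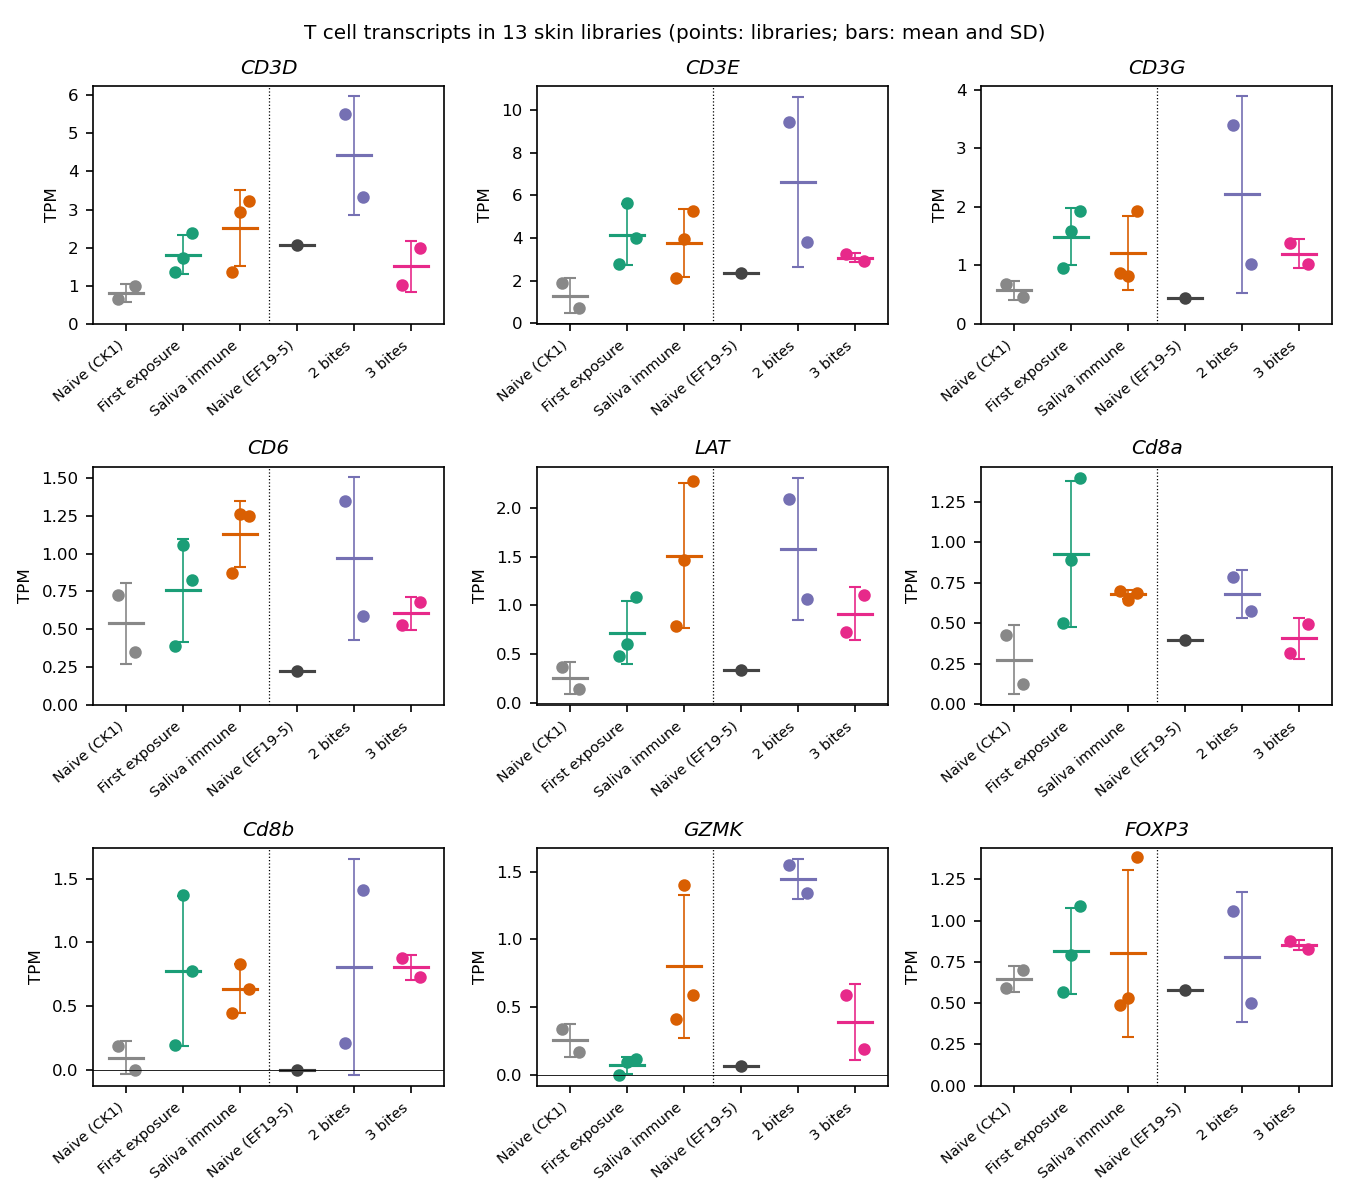
TPM of the 9 T cell genes in each of the 13 libraries, 1 panel per gene, with points for libraries grouped by treatment and bars for the group mean and SD. The library 2 bites replicate 1 holds the highest CD3D, CD3E and CD3G points, while GZMK is at 0, 0.0932 and 0.120 TPM in the 3 first exposure libraries.

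Bitten skin held more CD3 transcript than naive skin of the same set in most libraries, but no gene of the 9 passed the test. The mean CD3E level was 4.32 ± 2.10 TPM (SD, n = 10) in bitten and 1.65 ± 0.832 TPM (SD, n = 3) in naive skin. LAT, CD3G and Cd8b, like CD3E, lay above the naive libraries of their own set in all 10 bitten libraries. For 4 genes of the 8 tested the bitten libraries therefore did not overlap the naive ones within sets, against 3.09% of all tested genes. The limma test called 0 of 8 at an adjusted p under 0.05, against 0.0401% of all tested genes. At an unadjusted p under 0.05, 4 of 8 were higher, against 11.2% of all tested genes. All 8 differences were above 0, as were 64.6% of those of all tested genes, and the median was 0.61 on the log2 scale against 0.10 over all genes. Among the 9 described here, all tested genes but CD3E had passed the filter on low levels only with the help of bitten libraries. That tilts these counts towards bitten skin, and can do so in the comparisons of each group with naive skin. The shares of all tested genes do not adjust for it. The count of 4 came to 2 without naive replicate 2, to 2 without naive replicate 3, and to 1 with the level of the muscle genes as a covariate, which brought the median to 0.35. In CK1 alone, where 6 of the genes passed the filter on low levels, the count was 2 and the median 0.63, and in EF19-5 alone, with 5 genes, they were 0 and 0.72.

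CD3E encodes the chain that pairs with each of the other CD3 chains. In CK1 it measured 1.88 and 0.729 TPM in the naive libraries, 2.80, 5.65 and 3.98 TPM after a first exposure, and 2.12, 3.94 and 5.27 TPM in saliva immune skin. In EF19-5 it measured 2.35 TPM in the naive library, 9.44 and 3.80 TPM after 2 bites, and 3.24 and 2.92 TPM after 3 bites. Every bitten library lay above its own naive libraries, most narrowly saliva immune replicate 1. Between sets the ranges met, since the EF19-5 naive library lay above that saliva immune library. The fitted difference of bitten from naive skin was 0.96 (SE 0.306) in log2(TPM + 1), with a limma adjusted p of 0.186, and 0.71 without naive replicate 2. With the muscle genes as a covariate it was 0.60.

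CD3D, the delta chain, lay on opposite sides of the 1 EF19-5 naive library after 2 and after 3 bites. It measured 0.652 and 0.985 TPM in the CK1 naive libraries, 1.37, 1.71 and 2.38 TPM after a first exposure, and 1.37, 2.93 and 3.23 TPM in saliva immune skin. In EF19-5 it was 2.08 TPM in naive skin, 5.52 and 3.32 TPM after 2 bites, and 1.03 and 1.98 TPM after 3 bites. All 6 bitten CK1 libraries and both 2 bites libraries were above naive skin, and both 3 bites libraries were below it, replicate 2 narrowly. The 3 bites difference of -0.32 had an interval of -1.29 to 0.64, and it was -0.05 without 3 bites replicate 1. Against naive skin over both sets CD3D differed by 0.58 (SE 0.304, limma adjusted p 0.371).

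CD3G, the gamma chain, ranged from 0.448 to 0.685 TPM in the 3 naive libraries and from 0.815 to 3.40 TPM in the 10 bitten ones, with no overlap even across sets. Its difference was 0.65 (SE 0.248), with a limma adjusted p of 0.244. The 3 CD3 chains summed to 2.17 and 3.22 TPM in CK1 naive skin, to 5.13, 8.95 and 8.28 TPM after a first exposure, and to 4.36, 7.68 and 10.4 TPM in saliva immune skin. In EF19-5 the sum was 4.87 TPM in naive skin, 18.4 and 8.15 TPM after 2 bites, and 5.64 and 5.93 TPM after 3 bites. No bitten library of either set had a CD3 sum at or below its naive libraries.

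LAT is the scaffold that links the receptor to its downstream enzymes. It measured 0.370 and 0.139 TPM in CK1 naive skin, 0.477, 0.599 and 1.09 TPM after a first exposure, and 0.786, 1.47 and 2.27 TPM in saliva immune skin. In EF19-5 it was 0.336 TPM in naive skin, 2.10 and 1.07 TPM after 2 bites, and 0.725 and 1.11 TPM after 3 bites. All 10 bitten libraries lay above all 3 naive ones. The bitten mean of 1.17 ± 0.609 TPM (SD, n = 10) was 4.15 times the naive mean of 0.281 ± 0.125 TPM (SD, n = 3). On the log2 scale the difference was 0.71 (SE 0.242), with a limma adjusted p of 0.207, and 0.45 with the muscle genes as a covariate.

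CD6, a surface receptor that tunes T cell activation and adhesion, was 0.881 ± 0.338 TPM (SD, n = 10) in bitten and 0.435 ± 0.262 TPM (SD, n = 3) in naive skin. First exposure replicate 1, at 0.389 TPM, was the 1 bitten library not above the naive libraries of its set. The difference was 0.40 (SE 0.193), with a limma adjusted p of 0.338.

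The CD8 chains were near 0 TPM in naive skin. Cd8b, the beta chain of conventional cytotoxic T cells, was listed at 0 in naive replicate 2 of CK1 and in the EF19-5 naive library, and stood at 0.183 TPM in naive replicate 1. It measured 0.190, 1.37 and 0.771 TPM after a first exposure and 0.442, 0.832 and 0.635 TPM in saliva immune skin. After 2 bites it measured 0.206 and 1.41 TPM, and after 3 bites 0.874 and 0.731 TPM. All 10 bitten libraries were above naive skin, first exposure replicate 1 by the smallest margin, and the difference was 0.68 (SE 0.229, limma adjusted p 0.202). It was 0.67 with the muscle genes as a covariate. Within the 2 bites group, replicate 1 had the higher CD3 sum and the lower Cd8b.

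Cd8a, the alpha chain, ranged from 0.126 to 0.427 TPM in naive and from 0.319 to 1.40 TPM in bitten skin, with 9 of 10 bitten libraries above the naive ones of their set. It exceeded 1 TPM only in first exposure replicate 3. When no filter on low levels was applied, bitten skin differed by 0.37 (SE 0.143), with a limma adjusted p of 0.295. The first exposure difference was 0.58 (adjusted p 0.307) and the 3 bites difference 0.01 in that fit.

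GZMK encodes granzyme K, a protease of memory-type cytotoxic T cells, and it followed a different order of groups from the CD3 chains. It was listed at 0 in first exposure replicate 1 and measured 0.0932 and 0.120 TPM in the other first exposure libraries. In saliva immune skin it measured 0.413, 1.40 and 0.591 TPM, and in CK1 naive skin 0.340 and 0.169 TPM. In EF19-5 it was 0.0652 TPM in naive skin, 1.55 and 1.34 TPM after 2 bites, and 0.591 and 0.194 TPM after 3 bites. The first exposure libraries were all below CK1 naive skin, the saliva immune libraries all above it, and the 4 repeat bite libraries all above EF19-5 naive skin. Over bitten skin as a whole the difference from naive was 0.36 (SE 0.293), with a limma adjusted p of 0.574, and it was 0.13 without naive replicate 3.

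FOXP3 had the smallest range, from 0.490 to 1.39 TPM over the 13 libraries. Its mean was 0.812 ± 0.300 TPM (SD, n = 10) in bitten and 0.624 ± 0.0686 TPM (SD, n = 3) in naive skin, and 6 of 10 bitten libraries were above their naive ones. The difference of 0.14 (SE 0.178, limma adjusted p 0.730) had an interval of -0.24 to 0.53, which spanned 0. It was -0.09 after quantile normalization and -0.03 with the muscle genes as a covariate.

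**Figure D2:**
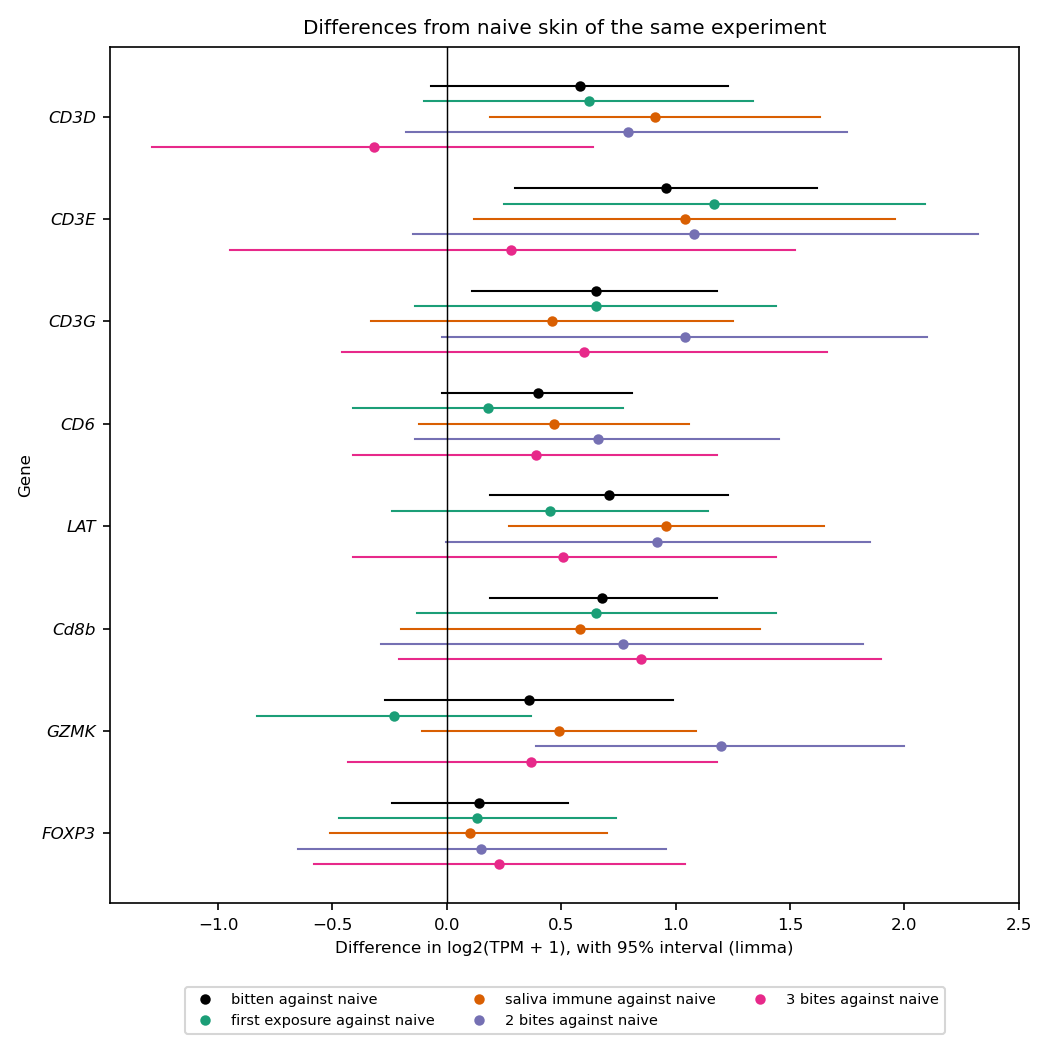
Differences in log2(TPM + 1) from naive skin for the 8 tested genes, with a row of points per gene for bitten skin as a whole and for each of the 4 bitten groups, and lines for the limma 95% interval. For CD3E the points run from 0.28 after 3 bites to 1.17 after a first exposure, and for GZMK from -0.23 after a first exposure to 1.2 after 2 bites.

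After a first exposure, 5 of the 8 tested genes lay above CK1 naive skin in every library (CD3D, CD3E, CD3G, LAT and Cd8b), against 21.9% of all tested genes. GZMK lay below in every library, as did 14.1% of all tested genes. CD3E had the largest difference, 1.17 (SE 0.413, limma adjusted p 0.290). No gene of the 8 passed by limma (0 of 8, against 0.0334% of all tested genes), and 1, CD3E, had an unadjusted p under 0.05, against 9.15% that were higher among all genes at that level. That count came to 0 without naive replicate 2 or without first exposure replicate 2, and to 2 without first exposure replicate 1. The median difference was 0.53, against 0.14 over all genes.

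In saliva immune skin 7 of the 8 tested genes lay above naive skin in every library, FOXP3 being the exception, against 18.5% of all tested genes. The differences were 1.04 for CD3E, 0.96 for LAT and 0.91 for CD3D. With limma 0 of 8 passed, against 0.00668% of all genes, with LAT at the smallest adjusted p, 0.338. At an unadjusted p under 0.05, 3 were higher, against 9.55% of all genes, and that count came to 1 without naive replicate 2, saliva immune replicate 2 or saliva immune replicate 3. The muscle list made up 9.42%, 10.5% and 2.44% of the TPM in the 3 saliva immune libraries, and the library with the lowest muscle share had the highest CD3 sum.

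Saliva immune and first exposure skin, both biopsied in CK1, had nearly the same mean CD3 sum, 7.49 ± 3.04 TPM and 7.45 ± 2.04 TPM (SD, n = 3 each). The difference between them was -0.13 for CD3E, with an interval of -0.95 to 0.69, and 0.29 for CD3D, with an interval of -0.36 to 0.93, and the sign of both turned under other settings. GZMK was the 1 gene of the 8 whose libraries did not overlap, against 5.41% of all tested genes that were higher without overlap. Its mean was 0.802 ± 0.528 TPM in saliva immune and 0.0712 ± 0.0632 TPM in first exposure skin (SD, n = 3 each). The GZMK difference was 0.71 (SE 0.241, interval 0.18 to 1.25), with a limma adjusted p of 1. The test called 0 of the 8 genes and 0% of all 14979 tested genes by limma, while 1 of the 8 was higher at an unadjusted p under 0.05, against 1.8% of all genes. That gene was GZMK, which reached 1 TPM only in saliva immune replicate 2 and both 2 bites libraries, and in no first exposure library. Its passing of the filter on low levels tilts these counts, and the shares of all genes do not adjust for it. With array weights, whose fit had not fully converged, limma called 2174 of all tested genes and 0 of the 8. The GZMK difference was 0.49 without saliva immune replicate 2, the library with its highest level in CK1, and the count of 1 came to 0. It came to 2 without saliva immune replicate 1.

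GZMK was also set against the CD3 chains of the same library, a measure chosen after its values had been seen. Its log2(TPM + 1) minus the mean of the 3 CD3 chains was -1.38, -1.72 and -1.71 after a first exposure and -0.76, -0.45 and -1.42 in saliva immune skin. The means were -1.60 ± 0.19 and -0.88 ± 0.50 (SD, n = 3 each). The groups overlapped, and the exact permutation test, two-sided, gave p = 0.2 where 3 against 3 libraries cannot go below 0.1. In CK1 naive skin the same measure was -0.58 and -0.55, above the mean of either exposed group. LAT was higher in saliva immune skin by 0.52 (SE 0.277, interval -0.10 to 1.13), and its groups overlapped.

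**Figure D3:**
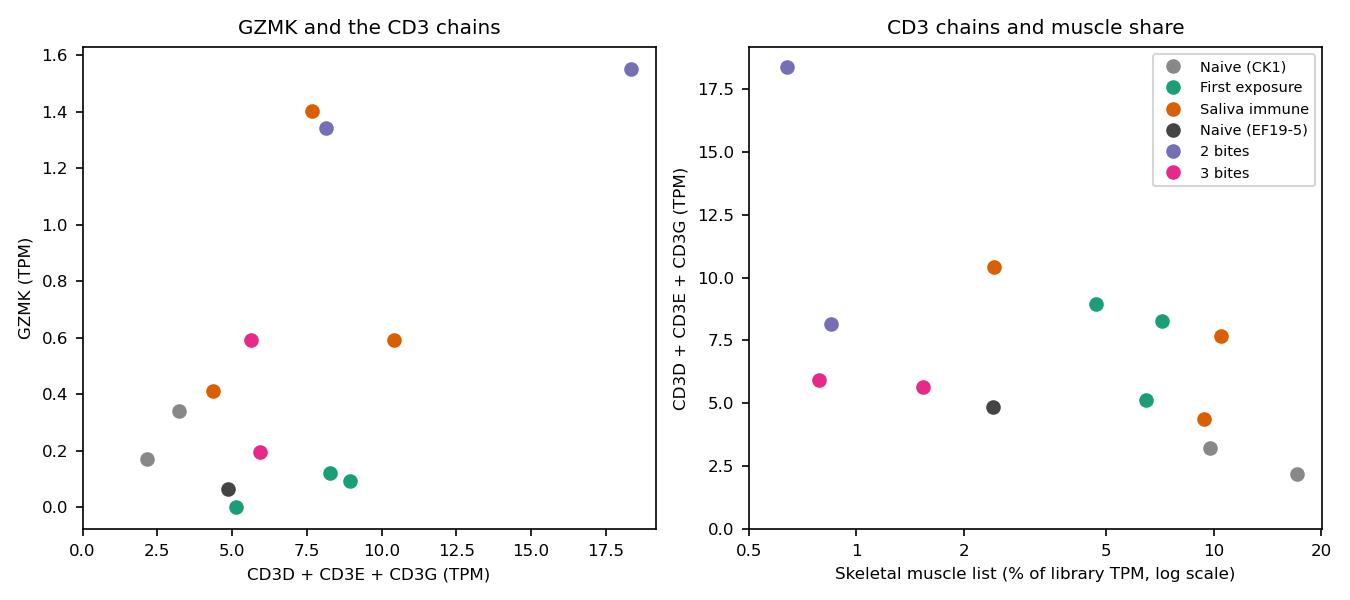
Left, GZMK against the sum of CD3D, CD3E and CD3G, both in TPM; right, the same sum against the share of TPM in 30 skeletal muscle genes, on a log axis; each point is 1 of the 13 libraries, coloured by group. The 3 first exposure libraries sit at 0, 0.0932 and 0.120 TPM of GZMK at CD3 sums of 5.13 to 8.95 TPM, and the 2 CK1 naive libraries combine the lowest CD3 sums with 9.78% and 17.1% muscle.

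After 2 bites all 8 differences from the EF19-5 naive library were above 0. Both libraries exceeded naive skin for 7 of 8 genes, FOXP3 again excepted, against 28.6% of all tested genes. GZMK had the largest difference, 1.2 (SE 0.361, interval 0.39 to 2.00), with a limma adjusted p of 0.743. CD3E followed at 1.08, CD3G at 1.04 and LAT at 0.92, each with an interval that reached 0 or below. The test called 0 of 8 by limma, against 0.0134% of all genes, and 1, GZMK, had an unadjusted p under 0.05, against 2.7% of all genes. That count came to 5 without 2 bites replicate 2 and to 2 without 2 bites replicate 1, to 3 without saliva immune replicate 3 and to 2 without saliva immune replicate 1. The median of 0.85 came to 0.51 without 2 bites replicate 1.

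After 3 bites, 7 of 8 genes lay above the EF19-5 naive library in both libraries, against 41.1% of all tested genes, and CD3D lay below in both, as did 24.2% of all genes. The largest differences were 0.85 for Cd8b and 0.60 for CD3G, and CD3D stood at -0.32, or 0.19 without the set of libraries as a term. Here 0 of 8 passed by limma, against 0.00668% of all genes, and 0 were higher at an unadjusted p under 0.05, against 1.65% of all genes. The single naive library of EF19-5 enters both comparisons, so the 2 and 3 bites differences from it are not independent of each other.

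Skin after 3 bites had lower CD3D, CD3E and GZMK than skin after 2 bites in every library, against 11.5% of all tested genes that were lower without overlap. CD3D was 1.51 ± 0.670 TPM after 3 bites and 4.42 ± 1.56 TPM after 2 bites (SD, n = 2 each), a difference of -1.11 (SE 0.353, interval -1.90 to -0.32, limma adjusted p 0.364). GZMK was 0.392 ± 0.281 TPM and 1.45 ± 0.148 TPM (SD, n = 2 each), a difference of -0.83 (SE 0.295, limma adjusted p 0.392). CD3E differed by -0.80 and LAT by -0.41, whereas Cd8b and FOXP3 both differed by 0.08, which for Cd8b was -0.42 without 2 bites replicate 1. No call was made by limma (0 of 8, and 0% of all genes), while 2 of 8, CD3D and GZMK, were lower at an unadjusted p under 0.05, against 2.66% of all genes. GZMK reached 1 TPM only in both 2 bites libraries and in saliva immune replicate 2. It thus passed the filter on low levels through the 2 bites group, where it was high. That tilts this count and the count without overlap, and the shares of all genes do not adjust for it. With the muscle genes as a covariate limma called 1012 of all tested genes and 0 of the 8. Without 2 bites replicate 1 the count came to 0, the CD3D difference to -0.81 and the CD3E difference to -0.24. The count came to 4 without 2 bites replicate 2 and to 1 without either of the 3 bites libraries. The GZMK difference without 2 bites replicate 1 was -0.76.

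Repeat bites were set against a first exposure as a difference between 2 effects, each relative to the naive skin of its own set. For the CD3 chains the estimates were -0.39 for CD3D, -0.49 for CD3E and 0.17 for CD3G, with intervals that spanned 0. For GZMK the estimate was 1.01 (SE 0.425, interval 0.06 to 1.96), with a limma adjusted p of 1.00, from 1.2 after 2 bites and 0.37 after 3 bites against -0.23 after a first exposure. Again 0 of 8 and 0% of all genes passed by limma, and 1 of 8 was higher at an unadjusted p under 0.05, against 0.821% of all genes. That count came to 0 without any 1 of 8 of the libraries in these groups: each first exposure library, naive replicates 1 and 2, 3 bites replicate 1 and both 2 bites libraries. The estimate itself ranged from 0.91 to 1.11 over those refits. GZMK, the 1 gene of that count, reached 1 TPM only in both 2 bites libraries and in saliva immune replicate 2. It thus passed the filter on low levels through repeat bite skin. That tilts the count, and the share of all genes does not adjust for it.

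Levels of the receptor genes were correlated across libraries. Over the 13 libraries, with levels centred within each set, Pearson r was 0.88 between CD3E and CD3G, 0.87 between CD6 and LAT and 0.83 between CD3D and LAT. The lowest of the CD3 chain pairs was CD3D with CD3G, at 0.64. GZMK had r = 0.70 with CD6, 0.65 with LAT, 0.60 with CD3D, 0.46 with CD3E, 0.36 with CD3G and 0.02 with FOXP3. These are descriptions over 13 libraries that share treatments, muscle content and the TPM total. Against the mean of the 3 CD3 chains, r was 0.858 for LAT, 0.833 for CD6, 0.603 for FOXP3, 0.519 for GZMK and 0.376 for Cd8b. For Cd8b it was 0.833 in CK1 alone and 0.699 over the libraries without 2 bites replicate 1, which combined the highest CD3 sum with 0.206 TPM of Cd8b. For GZMK the same refits gave 0.231 and 0.364, and for FOXP3 0.647 and 0.541. They gave 0.840 and 0.836 for LAT, and 0.755 and 0.757 for CD6. The median r over all tested genes was 0.14. Lists of other white blood cells lay well above that: the median r was 0.66 over 11 monocyte and macrophage genes and 0.57 over 8 dendritic and Langerhans cell genes. Over 19 genes of T cell receptor signalling it was 0.69. By r, LAT ranked 119, CD6 211, FOXP3 1858, GZMK 2710 and Cd8b 4399 of 14979 tested genes. Apart from the CD3 chains themselves, and among tested genes that the table gives a symbol, those most like the CD3 mean were TNIP1 (r = 0.951), IKZF1 (0.948), IL10RB (0.934), LTBR (0.934), ARHGAP30 (0.931), GCH1 (0.930), CD247 (0.926), GIMAP1 (0.924), NFKBIE (0.922) and MYCBPAP (0.922).

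Other genes of the receptor complex and its signalling were taken from lists. Of 5 further complex and coreceptor genes that could be tested in bitten against naive skin, 4 were higher and 1 lower, with a median of 0.28, and by limma 0 passed. Over all tested genes 64.6% were higher, with a median of 0.10. CD247, the zeta chain that carries most of the receptor's signalling tails, was 2.59 ± 1.33 TPM in bitten and 1.06 ± 0.278 TPM in naive skin (SD, n = 10 and 3), a difference of 0.72 (limma adjusted p 0.288). PTPRC, the phosphatase CD45 found on all white blood cells, was 5.86 ± 2.75 TPM and 2.27 ± 1.04 TPM, a difference of 0.99 (adjusted p 0.130), with no overlap within sets. SIT1, an adaptor named for T cells, had a difference of -1.17 (adjusted p 0.161) and means of 9.25 TPM in bitten and 23.7 TPM in naive skin. TRDC, a receptor chain gene of this list, was at a higher level than the CD3 chains. In EF19-5 it measured 45.25 TPM in naive skin and 56.0 ± 7.01 TPM after 3 bites (SD, n = 2).

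Of 19 signalling genes, 16 were higher and 3 lower in bitten skin (median 0.28), and 0 passed by limma. At an unadjusted p under 0.05, 2 of the 19 were higher, a share near the 11.2% over all tested genes. LCK, the kinase that starts the cascade, was 5.25 ± 1.89 TPM in bitten and 3.02 ± 1.46 TPM in naive skin (SD, n = 10 and 3), a difference of 0.65 (adjusted p 0.287). ZAP70, which docks on the phosphorylated tails, differed by 0.20 (adjusted p 0.683). RASGRP1, which activates RAS, differed by 0.82 (adjusted p 0.262), and NFATC1, a transcription factor driven by calcium, by -0.36 (adjusted p 0.198).

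The other T cell lists gave 0 genes that passed by limma, and their counts of higher genes stand against 64.6% of all tested genes. Some list genes, such as LAG3 and CCL17, were below 1 TPM in every naive library and passed the filter only through bitten libraries. That tilts these counts, and can tilt those of the lists above, towards bitten skin. The share of all tested genes does not adjust for it. The cytotoxic and natural killer list had 5 of 6 tested genes higher (median 0.46), led by TYROBP, an adaptor shared with myeloid cells, at 1.08 (adjusted p 0.198). In the regulatory list 10 of 11 were higher (median 0.38), with CAPG at 0.72 (adjusted p 0.128). The helper lineage list had 8 of 9 higher (median 0.40), and 5 more of its genes were at 0 in all libraries. Of 4 activation and checkpoint genes 2 were higher (median 0.19), and the inhibitory receptor LAG3 was 0.854 ± 0.409 TPM in bitten and 0.105 ± 0.138 TPM in naive skin (SD, n = 10 and 3), a difference of 0.75 (adjusted p 0.122). NR4A2 of this list was at 35.06 and 20.77 TPM in CK1 naive skin and at 6.743, 5.709 and 4.066 TPM after a first exposure. In saliva immune skin it measured 25.2, 8.984 and 5.414 TPM, which overlapped naive skin. The other set went the other way, with NR4A2 at 2.496 TPM in naive skin and from 2.866 to 5.752 TPM in bitten skin. The homing and chemokine list had 18 of 19 higher (median 0.46). CCL17, a chemokine for CCR4-bearing T cells, was at 0 in each of the 3 naive libraries and averaged 5.25 ± 3.59 TPM in bitten skin (SD, n = 10), with an adjusted p of 0.0729. The chemokine Ccl5 differed by 1.05 (adjusted p 0.257).

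Between 3 and 2 bites the complex and coreceptor list had 4 of 5 genes lower (median -0.40), with CD247 at 1.61 ± 0.765 TPM after 3 bites and 3.75 ± 1.77 TPM after 2 bites (SD, n = 2 each). The cytotoxic list had 5 of 6 lower (median -0.65). In the helper lineage list 7 of 9 were higher (median 0.19), against 64.8% of all tested genes. FYB1, an adaptor of T cells, differed by -1.38 (adjusted p 0.390), and the median over all genes was 0.13. By limma 0 list genes passed in this comparison. Between saliva immune and first exposure skin 0 passed as well, and the signalling list was at 10 higher and 9 lower (median 0.01), against 54.4% of all tested genes that were higher.

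Lists of genes of other cell types were read in the same comparison of bitten with naive skin. By limma 0 genes passed in these lists except for 1 muscle gene, and the counts of higher genes stand against 64.6% of all tested genes. The filter on low levels can tilt these counts towards bitten skin as well. All 11 tested monocyte and macrophage genes were higher (median 1.07), as were all 7 mast cell and basophil genes (median 0.68), 7 of 8 dendritic and Langerhans cell genes (median 0.53), 5 of 6 B cell and plasma cell genes (median 0.38), both platelet and erythroid genes (median 0.66) and 13 of 14 adipocyte genes (median 0.97). The summed level of the monocyte list ranged from 114 to 274 TPM in naive and from 146 to 1101 TPM in bitten skin. The B cell gene MS4A1 was listed at 0 in 11 libraries. Of 30 muscle genes 23 were lower (median -1.06), and PVALB, a calcium-binding protein of fast muscle, fell by 1.97 on the log2 scale (limma adjusted p 0.0413). The muscle genes had a median r of -0.71 with the mean CD3 level over the 13 libraries. After the muscle genes were removed and TPM rescaled, the median of the 8 T cell genes was 0.59 and the count at an unadjusted p under 0.05 was 4. The part of other cell types and of muscle in the T cell differences was not tested beyond these refits.

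**Figure D4:**
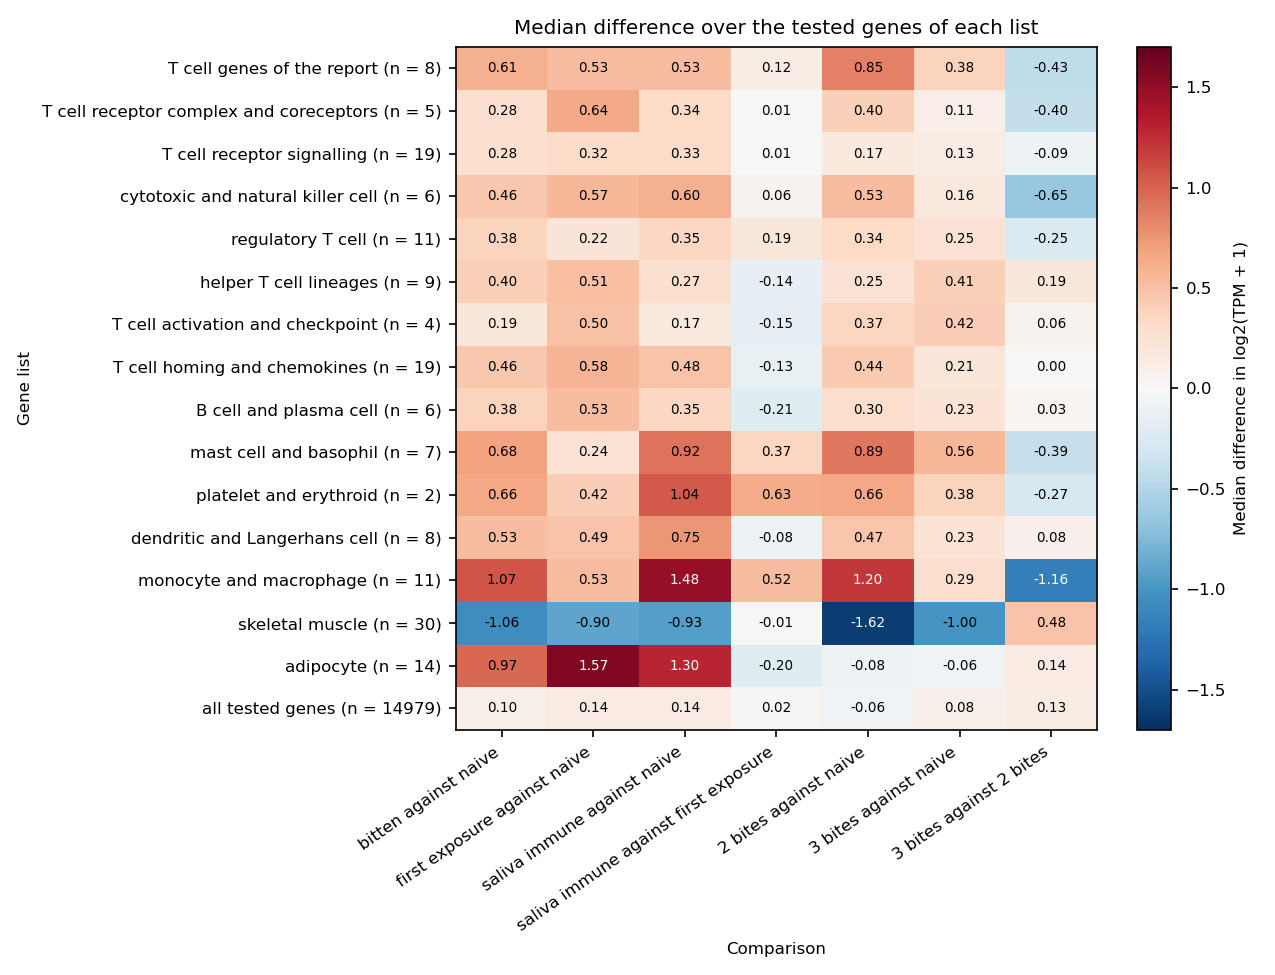
Median difference in log2(TPM + 1) over the tested genes of each list (rows, with the number of genes) in 7 comparisons (columns), coloured from blue for lower to red for higher, with the bottom row for all 14979 tested genes. The 8 T cell genes of the report stand at 0.61 in bitten against naive skin and at -0.43 in 3 against 2 bites, where the monocyte and macrophage list stands at -1.16.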

How the data were processed

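The data were 13 RNA-seq libraries of guinea pig skin with TPM values that the authors deposited for 26855 genes. The submitters' processing notes name Trimmomatic, StringTie and DESeq. The aligner, genome build and annotation were not given in the sources used here, and TPM keeps no depth, so the depth per library is unknown and no counting interval is given.

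TPM + 1 was log2 transformed, and genes that reached 1 TPM in 2 or more libraries were tested with limma 3.58.1 in R 4.3.3 (lmFit, eBayes with trend, two-sided, Benjamini-Hochberg over all 14979 tested genes, adjusted p under 0.05). The pseudocount of 1 understates the differences of low genes. Bitten against naive used a bitten term and the set of libraries (CK1 or EF19-5, from the sample titles, which do not explain these names). A second model, with a term for each of the 5 groups and the same set term, gave the other 7. The group with 1 naive library borrows its spread from the others. Non-overlap means that every library of one group lay above, or below, every library of the other within a set. Per-gene tables, correlations and the exact permutation test used Python 3.11.15 with pandas 2.3.3, numpy 2.4.6 and scipy 1.17.1. The limma script was tested on simulated data with known changes.

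The members and the gene lists were chosen with earlier results of these data known. All 9 members are given in every comparison. From the other lists the 3 tested genes with the smallest p in bitten against naive skin, in the T cell lists the leading genes of 3 against 2 bites and of saliva immune against first exposure, and a fixed panel of T cell genes could be named. The text gives part of these. The labels do not say that libraries come from separate animals, so p-values measure the spread between these samples, which may be technical. In all, 26 other settings were tried, 2 of them chosen after seeing the data.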

Additional observations from a re-analysis of the deposited data

Results flagged for a closer look

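In 9 groups of libraries, 1 per gene over the 10 bitten libraries, the highest or lowest value was compared with its nearest neighbour. Chance alone would mark about 1 in 20 such groups if all values were draws from the same normal distribution. These are TPM values from several bitten groups and both sets, so that rate need not hold. For 3 genes 2 bites replicate 1 was far above the rest: CD3D at 5.52 TPM against 3.32 TPM in the next library, CD3E at 9.44 TPM against 5.65 TPM, and CD3G at 3.40 TPM against 1.93 TPM. The 3 genes share this 1 library. Cd8a at 1.40 TPM in first exposure replicate 3 was far above the next library, at 0.888 TPM.

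For CD3D, both 2 bites libraries lay above the EF19-5 naive library and both 3 bites libraries below it, a difference of -1.11 in log2(TPM + 1) between 3 and 2 bites. The limma test of that difference did not pass (adjusted p 0.364), and it rests on 1 naive library. For GZMK, all 3 first exposure libraries lay below the CK1 naive libraries and all 3 saliva immune libraries above them, a difference of 0.71 between the groups (limma adjusted p 1).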

How the results depend on the processing

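None of the 8 tested T cell genes described here passed in any of the 26 other settings, and their smallest adjusted p in any fit was 0.0598 (CD3E, saliva immune against first exposure, array weights, a fit whose weights had not fully converged). Of 1508 gene values under other settings, 1467 kept their sign and 41 turned. The cause of each turn was not tested. TPM without counts leaves the precision of these low levels unknown, and the EF19-5 comparisons rest on 1 naive library. No paired analysis was possible because the labels carry no replicate numbers that pair libraries across groups.

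With a pseudocount of 0.1 the median differences from naive skin were 1.07 for bitten skin, 1.13 for a first exposure, 1.34 for saliva immune, 1.74 for 2 bites and 1.15 for 3 bites. With the muscle covariate they were 0.35 for bitten skin and 0.55 for 2 bites. The saliva immune median was 0.94 with a filter of 5 libraries and 0.26 after quantile normalization, and against first exposure it was -0.27 with array weights. The 3 against 2 bites median was -0.80 in EF19-5 alone, and the repeat bites median against a first exposure was -0.11 with the filter of 5 libraries. Over all genes, median-of-ratios scaling moved the median of bitten against naive skin from 0.10 to -0.0049, and that of the 8 T cell genes from 0.61 to 0.56. The count of all tested genes called moved more: from 6 to between 1 and 92 for bitten skin, from 5 to between 1 and 19 for a first exposure, from 1 to up to 20 for saliva immune skin, from 2 to between 1 and 254 for 2 bites and from 1 to up to 30 for 3 bites. From 0 it reached 2174 for saliva immune against first exposure (array weights), 1012 for 3 against 2 bites (muscle covariate) and 24 for repeat bites (no filter). Values of the other list genes under these settings are not given.

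Leaving out 1 library at a time, the medians ranged from 0.51 to 1.21 for 2 bites, from -0.89 to -0.18 for 3 against 2 bites and from -0.02 to 0.42 for repeat bites against a first exposure. Without naive replicate 2 and 2 bites replicate 1 together, the median was 0.51 for 2 bites and -0.18 for 3 against 2 bites.

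FOXP3 turned most often: -0.09 (quantile) and -0.03 (muscle covariate) for bitten skin, -0.10 and -0.03 for a first exposure, -0.29 and -0.07 for saliva immune skin with -0.14 under array weights, -0.16 (muscle) and -0.07 (both libraries out) for 2 bites, -0.01 (median-of-ratios and quantile) for 3 against 2 bites, and -0.0012 (no set term), -0.04 (muscle) and -0.11 (both libraries out) for repeat bites. Other turns were CD6 at -0.04 after quantile normalization for a first exposure, CD3D at -0.29 with array weights for saliva immune against first exposure, CD3D at 0.19 without the set term and CD3E at -0.04 with the muscle covariate for 3 bites, Cd8b at -0.0012 with median-of-ratios for 3 against 2 bites, and CD3D at 0.37 and CD3E at 0.10 without the set term for repeat bites. With both libraries out, 3 against 2 bites gave CD3G 0.12, CD6 0.01 and Cd8b -0.42, and repeat bites gave CD3G -0.0011.

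Where leaving out 1 library turned a sign, the ranges over such refits were as follows. For saliva immune it was FOXP3 -0.12 to 0.22. For saliva immune against first exposure they were CD3E -0.35 to 0.15, FOXP3 -0.26 to 0.08, Cd8b -0.33 to 0.02. For 2 bites it was FOXP3 -0.07 to 0.38. For 3 against 2 bites they were CD3G -1.0 to 0.12, CD6 -0.55 to 0.01, Cd8b -0.42 to 0.14, FOXP3 -0.15 to 0.30. For repeat bites they were Cd8b -0.10 to 0.41 (0.53 with both libraries out), FOXP3 -0.06 to 0.17, CD3G -0.11 to 0.45.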

Other observations

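Several T cell genes of a fixed panel were too low to test and are given as levels. Il4, the cytokine of type 2 helper T cells, was listed at 0 in 11 libraries and stood at 0.511 and 0.590 TPM in the 2 libraries after 2 bites. Ifng, the cytokine of type 1 helper and cytotoxic T cells, was above 0 in 1 library, 2 bites replicate 1, at 0.159 TPM. GZMA, a second granzyme, was highest in the same 2 bites libraries, at 1.07 and 0.953 TPM, and listed at 0 in 4 libraries. CD2, an adhesion receptor of T cells, was highest there too, at 1.56 and 0.603 TPM. PRF1, a further cytotoxic gene of the panel, did not peak there. It was highest in saliva immune replicate 2, at 0.8796 TPM, against 0.8392 and 0.7855 TPM after 2 bites.

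IL2RA, the alpha chain of the interleukin 2 receptor carried by activated and regulatory T cells, stood at 20.7 TPM in 2 bites replicate 1 and at 2.39 TPM in the next highest library. CTLA4, an inhibitory receptor of the same cells, was highest in the same library at 0.914 TPM, with 0.257 TPM in the next. CXCR3, a homing receptor of type 1 cells, was also highest there, at 0.843 TPM. FOXP3 in that library was 1.06 TPM, below saliva immune replicate 3 at 1.39 TPM. CD4, GZMB and KLRB1 were not matched by these symbols and were not analysed here.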
